A study of Mus musculus with 12 samples.

Results

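The genes described here encode the initiation and elongation factors of cytosolic protein synthesis. They were chosen by name, as protein-coding genes whose symbol begins with Eif1 to Eif6 or with Eef1 or Eef2, leaving out the eIF2 kinases (Eif2ak genes), Eif2s3x and Eif2s3y. Of 61 such genes, 58 reached at least 10 normalised reads in at least 3 of the 12 libraries, among 13865 genes of the whole table that did so. The other members were Eef1akmt3, with at most 2.29 normalised reads in any library, Eif4ebp3, with at most 4.93, and Eif4e1b, with 0 reads in every library. Names, biotypes and exon lengths came from GENCODE vM21.

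RNA of mouse heart ventricle was sequenced in 12 libraries, 3 each of LCHADD females, LCHADD males, WT (wild-type) females and WT males, with no treatment. In LCHADD the breakdown of long-chain fatty acids in mitochondria is defective, for want of long-chain 3-hydroxyacyl-CoA dehydrogenase. The labels give no allele, strain or age, and they do not say whether the libraries of a group came from separate animals, so p-values measure the spread between these libraries. Libraries held 15.6 to 23.2 M (mega) reads assigned to genes.

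Initiation begins when eIF2 brings the initiator tRNA to the small ribosomal subunit, together with eIF1, eIF1A, eIF3 and eIF5, and eIF4F (the cap-binding eIF4E, the scaffold eIF4G and the helicase eIF4A) recruits the mRNA. eIF2B recharges eIF2 with GTP, and eIF5B joins the large subunit. In elongation eEF1A delivers aminoacyl-tRNA, the eEF1B subunits recharge eEF1A, eIF5A helps with peptide bonds that form slowly, and eEF2 moves the ribosome along the mRNA. Adult heart muscle is known for using eEF1A2 beside eEF1A1.

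Most factor genes were higher in LCHADD ventricles. In the mean of both sexes 37 of 58 rose, or 63.8%, 2 fell and 19 did not pass the test, where 20.3% of all 13865 genes rose and 20.6% fell (limma on log2 of the normalised read count plus 1, Benjamini-Hochberg adjusted p under 0.05 over all genes). The median log2 change, LCHADD minus WT, was 0.30 over the 58 genes and -0.0019 over all genes tested. For 23 of the 58 genes every LCHADD library lay above every WT library, which held for 9.82% of all genes, and for 0 did every LCHADD library lie below, against 9.91%. Within females alone the LCHADD libraries all lay above the WT libraries for 35 genes (22.2% of all genes) and below for 2 (22.3%), and within males alone above for 32 (19.6%) and below for 3 (19.3%). The rise was at least 1 on the log2 scale for 3 genes, 0.5 to 1 for 12 and under 0.5 for 22. By complex, 13 of 14 genes rose for eIF3, and 5 of 6 for eEF1, counted with Eef1e1. For eIF1, eIF1A and eIF5, counted with Eif1ad, 5 of 6 rose. All 4 of eIF2 subunits with Eif2a and Eif2d rose. So did 4 of 11 for eIF4F with eIF4B and eIF4H, and 1 of 5 for eIF2B.

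**Figure D1:**
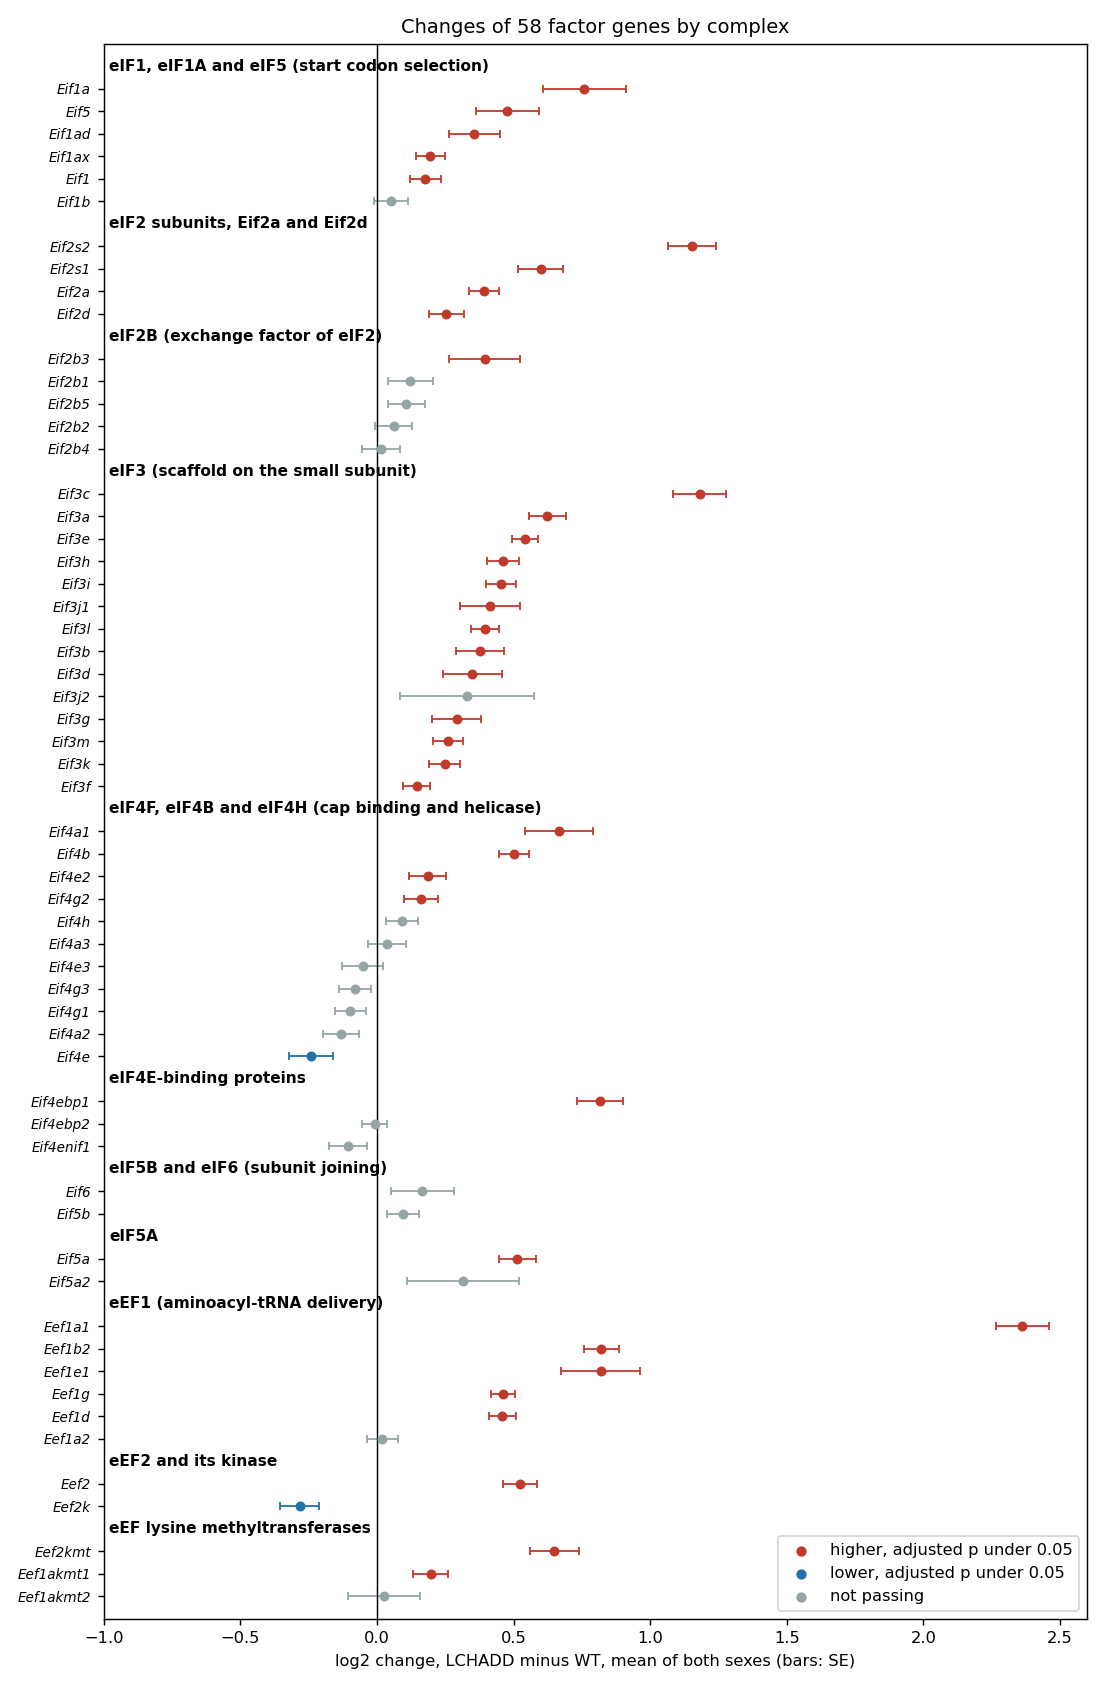
Each point is the log2 change of 1 of the 58 factor genes, LCHADD minus WT in the mean of both sexes, on the horizontal axis, with its SE as a bar, and the genes run down the page by complex. Red points rose, blue points fell and grey points did not pass, and Eef1a1 at 2.36 stands furthest to the right.

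The 58 genes together held 1.90 ± 0.31% of the reads from nuclear genes in LCHADD and 1.21 ± 0.028% in WT (SD, n = 6 each). The LCHADD libraries lay between 1.495% and 2.34% and the WT libraries between 1.16% and 1.24%, so the genotypes did not overlap. Eef1a1 alone made up 0.445 ± 0.183% in LCHADD and 0.0779 ± 0.0049% in WT. Without Eef1a1 the other 57 genes made up 1.46 ± 0.14% in LCHADD and 1.13 ± 0.026% in WT. Mitochondrially encoded genes took 31.0% to 37.9% of reads in LCHADD libraries and 27.5% to 32.7% in WT libraries. With the libraries scaled by nuclear reads alone, the counts of 37 higher and 2 lower did not change, where 23.9% of all genes were higher and 17.7% lower.

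Cell type markers moved with genotype as well. In the mean of both sexes 4 of 5 cardiomyocyte, 3 of 4 endothelial, 4 of 4 fibroblast, 3 of 4 mural and 3 of 3 erythroid markers fell, and 0 of 4 macrophage markers passed. The cardiomyocyte markers summed to 450283 to 706038 normalised reads in LCHADD females, 708286 to 807332 in LCHADD males and 848077 to 913240 in WT libraries. Myh6, Tnnt2, Actc1 and Myl2 fell in females (adjusted p = 0.000181 to 0.0186), and no cardiomyocyte marker passed in males (adjusted p = 0.106 to 0.791). Fibroblast markers summed to 4205 to 5487 in LCHADD and 6245 to 7595 in WT. All of them fell in females, and in males only Dcn passed. Among mural markers Pdgfrb and Myh11 fell in males (adjusted p = 0.0188 and 0.0036), and none passed in females. The endothelial and erythroid markers that fell did so in each sex. Endothelial markers summed to 7167 to 8237 in LCHADD and 8765 to 10117 in WT, mural markers to 6582 to 11059 in LCHADD and 9245 to 11180 in WT, and erythroid markers to 1670 to 3940 in LCHADD and 6100 to 11073 in WT. The macrophage sum overlapped over both sexes, but in females it was 2449 to 3709 in LCHADD and 2031 to 2316 in WT, and in males 2070 to 3075 in LCHADD and 2208 to 2964 in WT. In females alone 3 of the 4 macrophage markers rose, Adgre1 by 0.61 (adjusted p = 0.0329), Cd68 by 0.66 (adjusted p = 0.0232) and Lyz2 by 0.61 (adjusted p = 0.0168), and in males 0 of 4 passed. The atrial markers Sln and Myl7 and the lymphocyte markers Cd3e and Ms4a1 stayed under the filter on low values, and of the skeletal muscle markers Myh4 was at 0 throughout while Acta1, a skeletal actin also found in heart, rose by a log2 change of 1.78 (adjusted p = 2.28e-07). The part of these shifts in the changes of the factor genes was not tested, and in bulk tissue fewer cells of a type and less RNA per cell cannot be told apart.

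The largest change was in Eef1a1 (ENSMUSG00000037742, chromosome 9), which encodes the general form of eEF1A. Eef1a1 had 76879, 81346 and 64890 normalised reads in the LCHADD females and 38254, 28133 and 45570 in the LCHADD males, against 10138, 9981 and 10562 in the WT females and 9609, 10998 and 9549 in the WT males. All 6 LCHADD libraries lay above all 6 WT libraries, and the LCHADD females lay above the LCHADD males while WT females and males overlapped. The log2 change was 2.36 ± 0.096 (SE, adjusted p = 2.76e-10) over both sexes, 2.86 ± 0.14 (SE, adjusted p = 4.35e-09) in females and 1.87 ± 0.14 (SE, adjusted p = 6.23e-07) in males. Its close relative Eef1a2 (ENSMUSG00000016349, chromosome 2), which encodes the eEF1A form of adult muscle and neurons, did not pass. For Eef1a2 the LCHADD females held 16506, 14712 and 16403 normalised reads and the LCHADD males 17745, 17526 and 16179, against 16084, 17334 and 15999 in the WT females and 17638, 15306 and 15291 in the WT males. Its groups overlapped, with a log2 change of 0.02 ± 0.056 (SE, adjusted p = 0.8).

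Per kilobase of exon, the ratio of Eef1a1 to Eef1a2 was 3.31 to 4.62 in the LCHADD females and 1.34 to 2.36 in the LCHADD males, against 0.481 to 0.552 in the WT females and 0.455 to 0.601 in the WT males. Eef1a1 transcripts per length were thus above those of Eef1a2 in all 6 LCHADD libraries and below them in all 6 WT libraries. The mean ratio was 2.89 ± 1.27 in LCHADD and 0.523 ± 0.051 in WT (SD, n = 6 each). These ratios use the union of all annotated exons as the length, so a library that uses shorter transcripts would give another level.

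The promoters of this pair, and of Eif4a1 and Eif4a2 described further on, are printed as examples of pairs in which 1 gene rose while its relative did not pass. The same held for Eif4ebp1 with Eif4ebp2, Eif5a with Eif5a2, Eif3j1 with Eif3j2 and Eif1 with Eif1b, whose promoters are not printed. They are RefSeq windows on GRCm38.p6, from 250 bases before to 50 bases after the annotated start, 5′ to 3′ on the gene's own strand, in lower case. Capitals mark matches, on either strand, to any of 9 short motifs searched: TGATGNAA (the amino acid response element), TGACGTCA (the cyclic AMP response element) and the first part of that element, TGACGT, then TATAA (the TATA box), CCAAT (the CCAAT box), CACGTG (the E-box), CACGTGAC (an extended E-box), GCGGAAG (an ETS-type motif with G in front) and CCGGAAG (an ETS-type motif with C in front). Some of these contain or overlap one another.
Eef1a1, chr9:78481675-78481974, minus strand: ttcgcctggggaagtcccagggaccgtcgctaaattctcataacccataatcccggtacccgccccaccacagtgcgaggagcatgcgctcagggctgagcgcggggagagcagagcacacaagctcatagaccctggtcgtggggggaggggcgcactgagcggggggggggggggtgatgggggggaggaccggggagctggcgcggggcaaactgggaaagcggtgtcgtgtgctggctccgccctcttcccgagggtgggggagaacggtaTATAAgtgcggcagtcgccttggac
Eef1a2, chr2:181156966-181157265, minus strand: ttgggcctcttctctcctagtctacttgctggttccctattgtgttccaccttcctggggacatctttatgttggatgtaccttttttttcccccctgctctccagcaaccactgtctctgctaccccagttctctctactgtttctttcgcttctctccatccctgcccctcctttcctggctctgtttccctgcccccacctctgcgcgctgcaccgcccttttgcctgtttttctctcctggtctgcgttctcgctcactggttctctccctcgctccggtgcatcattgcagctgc
Eif4a1, chr11:69672374-69672673, minus strand: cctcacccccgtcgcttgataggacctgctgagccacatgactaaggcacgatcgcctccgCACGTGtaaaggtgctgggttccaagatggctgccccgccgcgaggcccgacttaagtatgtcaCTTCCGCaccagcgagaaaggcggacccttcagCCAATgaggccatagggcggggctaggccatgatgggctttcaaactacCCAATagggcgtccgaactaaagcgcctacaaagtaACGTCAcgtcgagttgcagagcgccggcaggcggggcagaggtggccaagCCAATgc
Eif4a2, chr16:23107218-23107517, plus strand: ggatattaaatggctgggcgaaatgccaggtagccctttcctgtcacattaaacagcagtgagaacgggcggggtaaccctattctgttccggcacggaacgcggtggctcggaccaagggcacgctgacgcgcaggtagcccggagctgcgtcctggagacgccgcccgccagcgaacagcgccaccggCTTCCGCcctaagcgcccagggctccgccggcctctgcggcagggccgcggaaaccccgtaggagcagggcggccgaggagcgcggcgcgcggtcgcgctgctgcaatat
The Eef1a1 window held a TATAA after the annotated start, and the Eef1a2 window held no match. The Eif4a1 window held 6 matches, 3 of them CCAAT, and the Eif4a2 window held 1, a GCGGAAG. Of the 58 genes, 45 had a window in the table. TATAA was in 6 of these 45 (13.3%) and in 28.0% of 27025 genes, and CCAAT in 31.1% of the 45 and 41.1% of all. TGATGNAA was in 1 of the 45, Eef2k, and in 4.51% of all genes. TGACGTCA was in 1, Eef2, and in 2.03% of all, and TGACGT in 17.8% and 8.37%. CACGTG was in 26.7% of the 45 and 8.09% of all, CACGTGAC in 13.3% and 2.55%, GCGGAAG in 26.7% and 6.53%, and CCGGAAG in 35.6% and 9.93%. The 27025 genes were not limited to the 13865 past the filter on low values, as the 45 were. Of the 45 genes, 27 rose in the mean of both sexes. Among these 27, CACGTG was in 22.2%, CACGTGAC in 7.41%, GCGGAAG in 33.3% and CCGGAAG in 37%. TATAA was in 22.2% of the 27, CCAAT in 29.6%, TGACGT in 25.9%, TGACGTCA in 3.7% and TGATGNAA in 0%. Whether a motif goes with the rise was not tested. A C followed by at least 4 pyrimidines at an annotated transcript start in GENCODE vM21 was found for 8 of the 58 genes (13.8%) and for 5.12% of 21877 protein-coding genes, again not limited to those past the filter. These are matches of letters, and annotated starts can be inexact.

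The eEF1 genes other than this pair rose too. Eef1b2 (ENSMUSG00000025967, chromosome 1) encodes a nucleotide exchange subunit that recharges eEF1A. Eef1b2 had 5324, 4892 and 5597 normalised reads in the LCHADD females and 3423, 3059 and 4132 in the LCHADD males, against 2518, 2514 and 2473 in the WT females and 2396, 2444 and 2256 in the WT males. Every LCHADD library lay above every WT library, and LCHADD females lay above LCHADD males. Its log2 change came to 0.82 ± 0.066 (SE, adjusted p = 2.19e-07) in the mean, 1.07 (adjusted p = 8.98e-07) in females and 0.57 (adjusted p = 0.000821) in males. An exon of Eef1b2 overlaps Ndufs1 on the opposite strand, and it is not known here whether the counting used strand. The remaining exchange subunits Eef1d and Eef1g rose by 0.46 ± 0.049 (SE, adjusted p = 4.08e-06) and 0.46 ± 0.045 (SE, adjusted p = 1.39e-06), and both rose in each sex.

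Eef1e1 (ENSMUSG00000001707, chromosome 13) encodes a small protein of the aminoacyl-tRNA synthetase complex. Eef1e1 stood at 315, 545 and 265 normalised reads in LCHADD females and at 261, 260 and 213 in LCHADD males, against 181, 147 and 200 in WT females and 165, 159 and 153 in WT males. The genotypes did not overlap, and LCHADD female 2 was well above the other LCHADD females. Its log2 change was 0.82 ± 0.14 (SE, adjusted p = 0.000376) in the mean, 1.03 (adjusted p = 0.00135) in females and 0.61 (adjusted p = 0.0567) in males. Without LCHADD female 2 the mean change was 0.67 (adjusted p = 2.23e-05).

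Eef2, which encodes the factor that moves the ribosome, rose by 0.52 ± 0.062 (SE, adjusted p = 9.92e-06), with 31050 to 43020 normalised reads in LCHADD libraries and 22750 to 28960 in WT libraries. In each sex it rose, by 0.52 (adjusted p = 0.000372) in females and 0.53 (adjusted p = 0.00089) in males. Eef2k, which encodes the kinase that inhibits eEF2, was 1 of the 2 genes that fell. Eef2k had 529, 424 and 502 normalised reads in the LCHADD females and 567, 571 and 522 in the LCHADD males, against 642, 616 and 536 in the WT females and 689, 625 and 679 in the WT males. Within each sex every LCHADD library was below every WT library. Limma gave a log2 change of -0.28 ± 0.071 (SE, adjusted p = 0.00519) in the mean and -0.30 (adjusted p = 0.0303) in females, while in males it was -0.26 (adjusted p = 0.0921). The female call was lost without LCHADD female 2, WT female 1 or WT female 2 (adjusted p = 0.0948 to 0.121), and the male change passed without LCHADD female 2 (adjusted p = 0.032).

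Eef2kmt (ENSMUSG00000022544, chromosome 16) encodes the enzyme that methylates a lysine of eEF2. For Eef2kmt the LCHADD females held 264, 237 and 264 normalised reads and the LCHADD males 244, 201 and 240, against 131, 166 and 132 in the WT females and 166, 171 and 158 in the WT males. The genotypes did not overlap. It rose by 0.65 ± 0.09 (SE, adjusted p = 4.34e-05) in the mean, 0.84 (adjusted p = 0.000148) in females and 0.46 (adjusted p = 0.0227) in males, and the male call was lost without LCHADD male 1, LCHADD male 3, WT male 1 or WT male 3 (adjusted p = 0.064 to 0.096). Its exons overlap Alg1 on the opposite strand. Of the methyltransferases of eEF1A, Eef1akmt1 rose by 0.20 ± 0.064 (SE, adjusted p = 0.0224), a call lost without LCHADD male 3, WT female 2 or WT male 2 (adjusted p = 0.0515 to 0.0578), and Eef1akmt2 had a change of 0.027 (adjusted p = 0.894).

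Eif5a, which encodes the hypusine-bearing factor eIF5A, rose. Eif5a had 9738, 10344 and 7814 normalised reads in the LCHADD females and 6837, 6235 and 7264 in the LCHADD males, against 5593, 5809 and 5255 in the WT females and 5199, 5754 and 5642 in the WT males. The genotypes did not overlap, and the LCHADD females lay above the LCHADD males. On the log2 scale it rose by 0.51 ± 0.068 (SE, adjusted p = 2.86e-05) in the mean, 0.73 (adjusted p = 4.04e-05) in females and 0.29 (adjusted p = 0.0521) in males. Its relative Eif5a2 had few reads. Eif5a2 stood at 42.6, 49.5 and 31.7 normalised reads in LCHADD females and at 28.1, 36.6 and 47.8 in LCHADD males, against 28.2, 15.6 and 23.1 in WT females and 37.8, 58 and 38.1 in WT males. In females the LCHADD libraries lay above the WT libraries and in males they overlapped. Its change was 0.31 ± 0.20 (SE, adjusted p = 0.238) in the mean, 0.88 (adjusted p = 0.0292) in females and -0.25 (adjusted p = 0.615) in males, and the female call was lost without LCHADD female 1, LCHADD female 2, WT female 2 or WT female 3 (adjusted p = 0.0547 to 0.13).

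Among the subunits of eIF2, Eif2s2 (ENSMUSG00000074656, chromosome 2), which encodes the beta subunit, had the larger change. For Eif2s2 the LCHADD females held 3172, 4113 and 2660 normalised reads and the LCHADD males 2424, 2016 and 2360, against 1185, 1245 and 1202 in the WT females and 1197, 1321 and 1180 in the WT males. All LCHADD libraries lay above all WT libraries, with LCHADD females above LCHADD males. The rise on the log2 scale was 1.15 ± 0.087 (SE, adjusted p = 1.20e-07) in the mean, 1.43 (adjusted p = 8.48e-07) in females and 0.88 (adjusted p = 0.000235) in males. Eif2s1, which encodes the alpha subunit whose phosphorylation slows initiation, rose by 0.60 ± 0.083 (SE, adjusted p = 4.58e-05), by 0.76 (adjusted p = 0.000181) in females and by 0.44 (adjusted p = 0.0202) in males. The male call of Eif2s1 was lost without LCHADD male 1, LCHADD male 3, WT male 1, WT male 2 or WT male 3 (adjusted p = 0.0534 to 0.0753). Per kilobase of exon, a ratio computed after the values had been seen, Eif2s2 to Eif2s1 was 2.01 ± 0.19 in LCHADD and 1.36 ± 0.047 in WT (SD, n = 6 each), with no overlap.

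Both alternative factors in this group rose. Eif2a, an initiator tRNA binding factor that is no subunit of eIF2, changed by 0.39 ± 0.055 (SE, adjusted p = 4.97e-05), and Eif2d, which acts in recycling and reinitiation, by 0.25 ± 0.064 (SE, adjusted p = 0.00556). Eif2a overlaps Serp1 on the opposite strand. Of the exchange factor eIF2B, only the gamma subunit gene Eif2b3 passed among 5 genes, with 0.39 ± 0.13 (SE, adjusted p = 0.0238), a call lost without LCHADD male 1 or WT female 2 (adjusted p = 0.0651 to 0.0654). The changes of Eif2b1, Eif2b2, Eif2b4 and Eif2b5 were between 0.015 and 0.12, and Eif2b5 passed without LCHADD female 3 (adjusted p = 0.0403). The difference between eIF2 and eIF2B was not tested.

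The eIF3 complex binds the small subunit and holds the other factors there. Its genes rose in 13 of 14 cases, with a median log2 change of 0.39 over the 14. Eif3c (ENSMUSG00000030738, chromosome 7), a core subunit, led them. Eif3c had 5201, 6425 and 4102 normalised reads in the LCHADD females and 4696, 3309 and 3933 in the LCHADD males, against 1990, 2150 and 1965 in the WT females and 1995, 1880 and 1942 in the WT males. The genotypes did not overlap in any library. It rose by a log2 change of 1.18 ± 0.097 (SE, adjusted p = 2.74e-07) in the mean, 1.34 (adjusted p = 4.09e-06) in females and 1.02 (adjusted p = 0.000167) in males.

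Eif3a (ENSMUSG00000024991, chromosome 19), the largest subunit and partner of Eif3c in the core, followed. Eif3a stood at 4202, 4845 and 4034 normalised reads in LCHADD females and at 4238, 4065 and 4017 in LCHADD males, against 3012, 3009 and 2416 in WT females and 2756, 2837 and 2480 in WT males. All LCHADD libraries lay above all WT libraries, and females and males overlapped in both genotypes. It rose by 0.62 ± 0.067 (SE, adjusted p = 3.73e-06) in the mean, 0.64 (adjusted p = 0.000122) in females and 0.61 (adjusted p = 0.000521) in males. The other passing eIF3 genes rose by 0.15 (Eif3f) to 0.54 (Eif3e). In order of size they were Eif3e, Eif3h, Eif3i, Eif3j1, Eif3l, Eif3b, Eif3d, Eif3g, Eif3m, Eif3k and Eif3f. The call of Eif3f was lost without LCHADD male 3, WT female 3 or WT male 2 (adjusted p = 0.0724 to 0.0781) or with no filter (adjusted p = 0.0541), and that of Eif3g without LCHADD male 1 (adjusted p = 0.0509).

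Eif3j1 and Eif3j2 are near copies that encode the loosely bound j subunit, and reads may have been split between them. For Eif3j1 the LCHADD females held 1010, 1583 and 896 normalised reads and the LCHADD males 1041, 945 and 980, against 849, 785 and 689 in the WT females and 762, 871 and 809 in the WT males. For Eif3j2 the LCHADD females held 21.9, 48.5 and 22.2 normalised reads and the LCHADD males 27.1, 25.2 and 14.8, against 20.3, 16.5 and 27.4 in the WT females and 20.9, 17.3 and 17.3 in the WT males. For Eif3j1 the genotypes did not overlap, with LCHADD female 2 the highest, and Eif3j2 was low with overlapping groups. The change was 0.41 ± 0.11 (SE, adjusted p = 0.0073) for Eif3j1 and 0.33 ± 0.25 (SE, adjusted p = 0.305) for Eif3j2.

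In start codon selection, Eif1a (ENSMUSG00000057561, chromosome 18), an autosomal gene for eIF1A, changed most. Eif1a had 431, 736 and 338 normalised reads in the LCHADD females and 339, 302 and 352 in the LCHADD males, against 250, 304 and 223 in the WT females and 238, 222 and 182 in the WT males. Within each sex the LCHADD libraries lay above the WT libraries, and LCHADD female 2 was the highest of all. The log2 change was 0.76 ± 0.15 (SE, adjusted p = 0.000962) in the mean, 0.88 (adjusted p = 0.00504) in females and 0.63 (adjusted p = 0.0577) in males. Without LCHADD female 2 the mean change was 0.60 (adjusted p = 8.36e-05). Its X-linked relative Eif1ax had more reads in every library. Eif1ax stood at 1132, 1065 and 1150 normalised reads in LCHADD females and at 1113, 1152 and 1158 in LCHADD males, against 977, 1011 and 935 in WT females and 959, 1080 and 955 in WT males. Here too each sex was separated by genotype, but the change was smaller, at 0.20 ± 0.053 (SE, adjusted p = 0.00807).

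Eif1 encodes the factor that guards start codon choice, and Eif1b its close relative. Eif1 had 8137, 9424 and 7798 normalised reads in the LCHADD females and 8040, 7529 and 7194 in the LCHADD males, against 7720, 7396 and 7080 in the WT females and 6649, 7135 and 6495 in the WT males. Eif1b had 547, 482 and 550 normalised reads in the LCHADD females and 542, 488 and 531 in the LCHADD males, against 513, 505 and 470 in the WT females and 536, 504 and 501 in the WT males. For Eif1 each sex was separated by genotype, and for Eif1b the groups overlapped. Eif1 rose by 0.18 ± 0.056 (SE, adjusted p = 0.0193), a call lost without LCHADD male 1 or WT male 3 (adjusted p = 0.0527 to 0.057), and Eif1b had a change of 0.051 ± 0.062 (SE, adjusted p = 0.537). Eif5, whose product makes eIF2 hydrolyse its GTP, rose by 0.48 ± 0.12 (SE, adjusted p = 0.00404), and Eif1ad, named for its eIF1A-like domain, by 0.36 ± 0.093 (SE, adjusted p = 0.00671). Exons of Eif1ad overlap Banf1 on the opposite strand. Eif5b and Eif6, which act on the joining of the subunits, did not pass, with 0.096 ± 0.059 (SE, adjusted p = 0.212) and 0.17 ± 0.12 (SE, adjusted p = 0.274), and Eif6 passed without LCHADD female 3 (adjusted p = 0.0189).

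**Figure D2:**
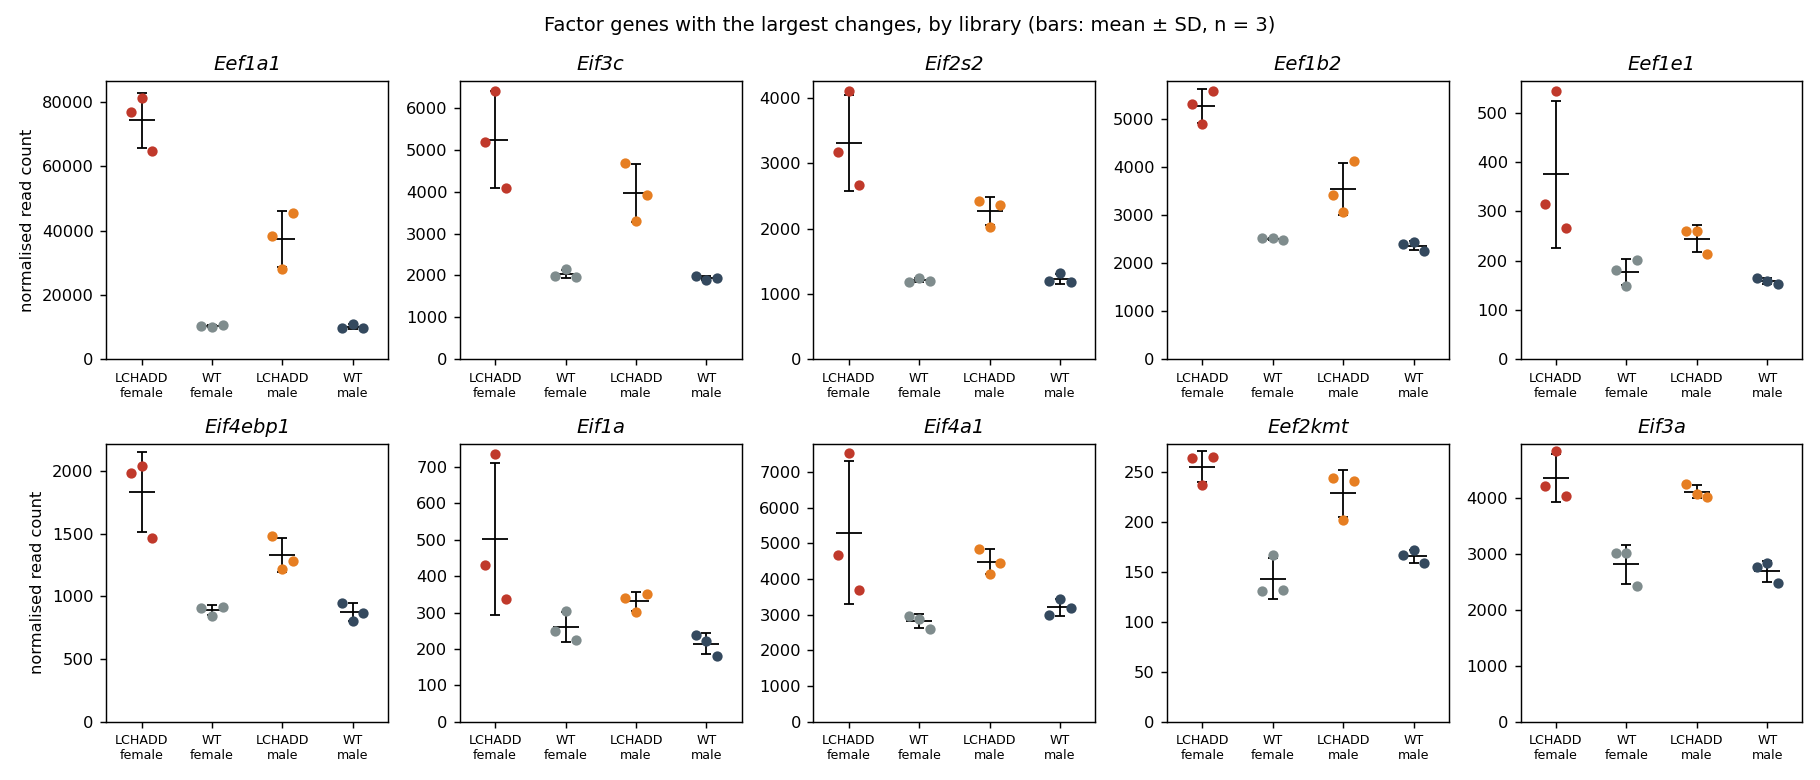
Each panel shows 1 of the 10 genes with the largest changes, with the normalised read count of every library as a point on the vertical axis and the 4 groups along the horizontal axis, and bars give the mean and SD of 3 libraries. In 9 of the 10 panels every LCHADD library lies above every WT library; in the Eif1a panel LCHADD male 2 lies just under WT female 2.

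Genes of the cap-binding complex eIF4F were mixed. Of 11 genes, counted with Eif4b and Eif4h, 4 rose, 1 fell and 6 did not pass, with a median log2 change of 0.037. Eif4a1 (ENSMUSG00000059796, chromosome 11), which encodes the main helicase, rose. Eif4a1 had 4673, 7546 and 3686 normalised reads in the LCHADD females and 4846, 4154 and 4450 in the LCHADD males, against 2972, 2876 and 2609 in the WT females and 2986, 3449 and 3183 in the WT males. The genotypes did not overlap, though LCHADD female 2 stood far above the other LCHADD females. The change was 0.67 ± 0.12 (SE, adjusted p = 0.000571) in the mean, 0.85 (adjusted p = 0.00173) in females and 0.48 (adjusted p = 0.0754) in males. Without LCHADD female 2 the mean change was 0.52 (adjusted p = 2.80e-06).

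Eif4a2, the helicase relative, did not pass. For Eif4a2 the LCHADD females held 4515, 4161 and 5716 normalised reads and the LCHADD males 4332, 4675 and 4381, against 5212, 5412 and 5218 in the WT females and 4744, 4891 and 4828 in the WT males. In males the LCHADD libraries lay below the WT libraries and in females they overlapped. Its change was -0.13 ± 0.065 (SE, adjusted p = 0.12), and it passed as lower without LCHADD female 3 (adjusted p = 0.00227). Eif4a3, which belongs to the exon junction complex, overlapped throughout. Eif4a3 stood at 647, 753 and 636 normalised reads in LCHADD females and at 653, 752 and 699 in LCHADD males, against 642, 710 and 689 in WT females and 696, 587 and 712 in WT males. Its change was 0.037 ± 0.07 (SE, adjusted p = 0.707). Per kilobase of exon, the ratio of Eif4a1 to Eif4a2 was 0.794 to 2.23 in LCHADD libraries and 0.616 to 0.868 in WT libraries. LCHADD female 3, the lowest LCHADD library in this ratio, fell inside the WT range. A pseudogene of this family, Eif4a-ps4, held 27.8 to 123 normalised reads, with means of 63.3 in LCHADD and 39.5 in WT. Whether it shared reads with Eif4a1 was not tested.

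Eif4e, which encodes the cap-binding protein itself, was the other gene that fell. Eif4e had 1824, 1612 and 2368 normalised reads in the LCHADD females and 2194, 2519 and 2435 in the LCHADD males, against 2421, 2369 and 2077 in the WT females and 2797, 2846 and 2686 in the WT males. In males the LCHADD libraries lay below the WT libraries, and in females LCHADD female 3 fell among them. Its change was -0.24 ± 0.08 (SE, adjusted p = 0.0257), and the call was lost without LCHADD female 1, LCHADD male 1, WT female 1, WT female 2, WT male 1 or WT male 2 (adjusted p = 0.0515 to 0.0699). Eif4e2 encodes a cap-binding relative that represses translation. For Eif4e2 the LCHADD females held 1002, 1120 and 861 normalised reads and the LCHADD males 957, 986 and 1062, against 837, 812 and 761 in the WT females and 884, 1036 and 946 in the WT males. In females the genotypes did not overlap and in males they did. It rose by 0.19 ± 0.069 (SE, adjusted p = 0.043), a call lost without LCHADD female 1, LCHADD female 2, LCHADD male 1, LCHADD male 2, LCHADD male 3, WT female 1, WT female 2, WT female 3, WT male 1 or WT male 3 (adjusted p = 0.0512 to 0.11) or with no filter (adjusted p = 0.0653). Eif4e3 stood at 834, 638 and 856 normalised reads in LCHADD females and at 783, 900 and 884 in LCHADD males, against 761, 842 and 801 in WT females and 853, 928 and 864 in WT males. For this cap-binding relative, Eif4e3, the groups overlapped, with a change of -0.051 ± 0.075 (SE, adjusted p = 0.615).

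Of the scaffold genes, Eif4g2 rose, and Eif4g1 and Eif4g3 did not pass. Eif4g1 had 7091, 8040 and 6592 normalised reads in the LCHADD females and 9012, 9640 and 8134 in the LCHADD males, against 8163, 8063 and 8135 in the WT females and 9258, 9123 and 8793 in the WT males. In females the LCHADD libraries lay below the WT libraries and in males they overlapped, with a change of -0.097 ± 0.057 (SE, adjusted p = 0.188), and Eif4g1 passed as lower without LCHADD female 2 (adjusted p = 0.0335). For Eif4g2 the LCHADD females held 18883, 24207 and 19426 normalised reads and the LCHADD males 21785, 20161 and 19778, against 18574, 18358 and 17993 in the WT females and 18574, 18782 and 18394 in the WT males. Eif4g2 encodes a scaffold that lacks the eIF4E-binding site, and its LCHADD libraries all lay above its WT libraries. It rose by 0.16 ± 0.061 (SE, adjusted p = 0.0449), a call lost without LCHADD female 2, LCHADD male 1, LCHADD male 2, WT female 1, WT female 2, WT female 3, WT male 1, WT male 2 or WT male 3 (adjusted p = 0.059 to 0.112), under a replicate block (adjusted p = 0.0572) and with no filter (adjusted p = 0.115), and without LCHADD female 2 the change was 0.105. Eif4g3 stood at 934, 1069 and 850 normalised reads in LCHADD females and at 912, 915 and 909 in LCHADD males, against 1025, 979 and 1042 in WT females and 989, 911 and 956 in WT males. The Eif4g3 groups overlapped, with -0.081 ± 0.059 (SE, adjusted p = 0.3). Eif4b, a helper of the helicase, rose by 0.50 ± 0.056 (SE, adjusted p = 5.52e-06), and Eif4h, a related helper, had a change of 0.09 ± 0.058 (SE, adjusted p = 0.234).

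The 4E-binding proteins hold eIF4E away from eIF4G until mTORC1 phosphorylates them. Eif4ebp1 (ENSMUSG00000031490, chromosome 8) rose. Eif4ebp1 had 1985, 2043 and 1464 normalised reads in the LCHADD females and 1479, 1220 and 1285 in the LCHADD males, against 909, 842 and 912 in the WT females and 947, 800 and 871 in the WT males. All LCHADD libraries lay above all WT libraries. The change was 0.82 ± 0.083 (SE, adjusted p = 2.24e-06) in the mean, 1.03 (adjusted p = 1.17e-05) in females and 0.60 (adjusted p = 0.00284) in males. For Eif4ebp2 the LCHADD females held 2348, 2297 and 2236 normalised reads and the LCHADD males 2326, 2239 and 2307, against 2436, 2266 and 2489 in the WT females and 2220, 2192 and 2249 in the WT males. For Eif4ebp2 the groups overlapped, with -0.0088 ± 0.044 (SE, adjusted p = 0.895). Eif4enif1, which encodes a protein that carries eIF4E between compartments, had a change of -0.11 ± 0.071 (SE, adjusted p = 0.255). The per-kilobase ratio of Eif4ebp1 to Eif4ebp2 was 1.44 to 2.34 in LCHADD libraries and 0.961 to 1.12 in WT libraries, with no overlap.

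**Figure D3:**
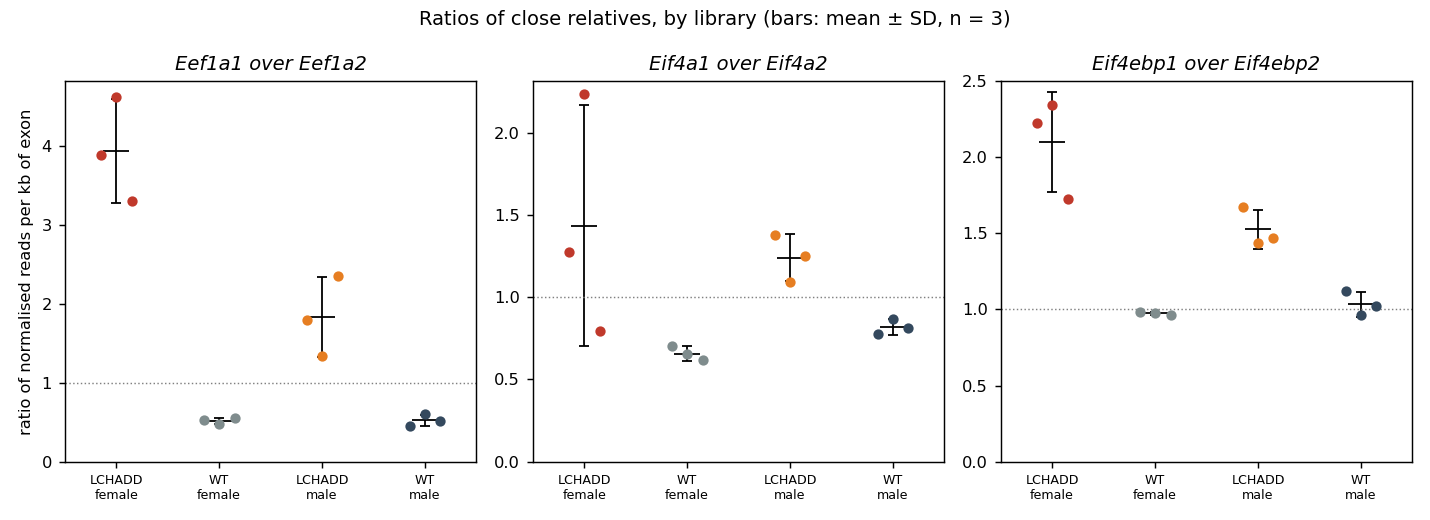
Ratios of normalised reads per kilobase of exon between close relatives are shown for every library on the vertical axis, with the 4 groups along the horizontal axis, a dotted line at equal levels and bars for the mean and SD of 3 libraries. The ratios of Eef1a1 to Eef1a2 and of Eif4ebp1 to Eif4ebp2 separate LCHADD from WT in every library, and that of Eif4a1 to Eif4a2 does so in all but LCHADD female 3.

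The change within each sex was next read from the same fit of all 12 libraries, with the spread shared between groups. In females 33 of 58 genes rose and 1, Eef2k, fell, where 16.7% of all genes rose and 17.2% fell. In males 16 rose and 0 fell, where 7.71% of all genes rose and 7.77% fell. All 16 that rose in males also rose in females: Eef1a1, Eef1b2, Eef1d, Eef1g, Eef2, Eef2kmt, Eif2a, Eif2s1, Eif2s2, Eif3a, Eif3c, Eif3e, Eif3h, Eif3l, Eif4b and Eif4ebp1. The median log2 change was 0.42 in females and 0.20 in males. With each sex alone in the fit these medians were the same, but the order of the counts turned. Then 24 genes rose in females, where 12.2% of all genes rose, and 26 in males, where 11.8% did. The larger count in females thus depended on the shared spread. The male call of Eif2a was lost without LCHADD male 1 or WT male 3 (adjusted p = 0.0606 to 0.0708) and that of Eif3h without LCHADD male 3 or WT male 3 (adjusted p = 0.0807 to 0.0928), beside those of Eef2kmt and Eif2s1 given above. In females the calls of Eef1akmt1, Eif1ad, Eif3b, Eif3d, Eif3g, Eif3j1 and Eif4e2 were each lost without at least 1 library. Without LCHADD female 2, 26 genes rose in males and 1 fell, where 11.7% of all genes then rose in males and 12.1% fell, although the males' changes themselves are then the same by construction and only the shared estimate of the spread differs. The 10 additional genes were Eef1e1, Eif1a, Eif1ad, Eif2b3, Eif3b, Eif3i, Eif3j1, Eif4a1, Eif5 and Eif5a. The single gene lower in females varied, with 0 genes lower without WT female 1 or WT female 2 and 3 lower without LCHADD female 3. Of all genes 13.7%, 13.5% and 18.4% were then lower in females.

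The log2 change was larger in females than in males for 42 of the 58 genes (72.4%, against 50% of all genes) and for 35 of the 37 that rose (94.6%, against 79.0% of all genes that rose). Without LCHADD female 2 the median change in females over the 58 genes was 0.28 in place of 0.42, and the median difference, females minus males, 0.063 in place of 0.12, and without LCHADD male 2 that median difference was 0.06. The test of that difference, the interaction of genotype and sex, passed for 0 of 58 genes with limma and for 0.00721% of all genes. At an unadjusted p under 0.05 it held for 11 of the 58, against 9.83% of all genes. The smallest adjusted p was that of Eef1a1, with a difference between the sexes in log2 change, females minus males, of 0.99 ± 0.19 (SE, adjusted p = 0.137). edgeR called 0 of the 58 and 0.0144% of all genes, and DESeq2 called 5 (Eef1a1, Eef1b2, Eif2s2, Eif3i and Eif5a) and 0.909% of all genes. With limma 4 genes passed without LCHADD female 3 (Eef1a1, Eif2s2, Eif4ebp1 and Eif5a), where 1.34% of all genes did, and 2 without LCHADD male 3 (Eef1a1 and Eef1b2), where 0.498% did.

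**Figure D4:**
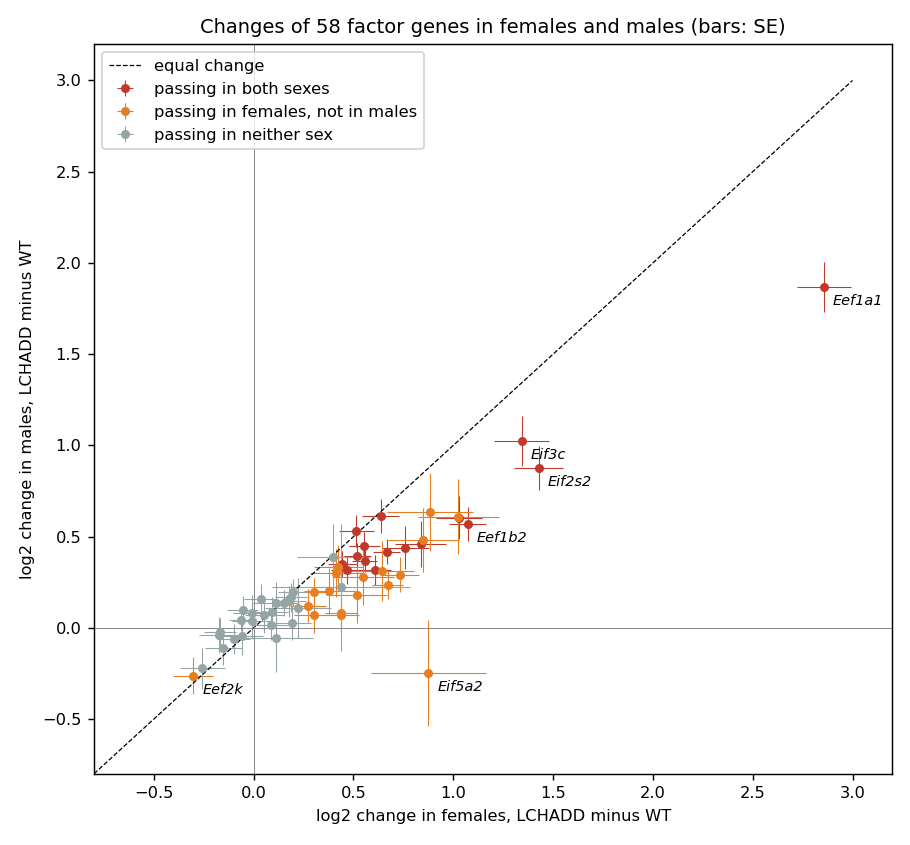
Each point is 1 of the 58 factor genes, with its log2 change, LCHADD minus WT, in females on the horizontal axis and in males on the vertical axis, and bars for the SE. Most points lie under the dashed line of equal change, Eef1a1 at 2.86 and 1.87 lies far from the rest, and Eif5a2 lies above 0 in females and below 0 in males.

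Averaged over both genotypes, 8 of 58 genes differed between females and males: 6 were higher in females and 2 lower, where 1.89% of all genes were higher in females and 2.48% lower. Higher in females were Eef1a1, Eef1b2, Eef1d, Eef1g, Eif3i and Eif3k, and lower were Eif4e, by -0.30 on the log2 scale (adjusted p = 0.0466), and Eif4g1, by -0.23 (adjusted p = 0.0323). For Eef1a1 the average differed by 0.52 ± 0.096 (SE, adjusted p = 0.00672), but LCHADD females had 74370 ± 8510 normalised reads and LCHADD males 37320 ± 8756, while WT females had 10230 ± 301 and WT males 10050 ± 820 (SD, n = 3 each). Eef1b2 had a mean of 5271 in LCHADD females and 3538 in LCHADD males, and 2502 in WT females and 2366 in WT males. Eif3i had means of 2536 in LCHADD females and 1793 in LCHADD males, but 1593 and 1520 in WT, where the sexes overlapped. For Eef1b2, Eef1d, Eef1g and Eif3k every female library lay above every male library in each genotype. Eif4g1 was lower in females in both genotypes, with 7241 ± 736 in LCHADD females and 8929 ± 756 in LCHADD males, and 8120 ± 51.7 in WT females and 9058 ± 239 in WT males. The count of 8 depended on single libraries. It was 3 without LCHADD female 1, LCHADD male 2, WT female 2, WT female 3, WT male 1, WT male 2 or WT male 3, where 2.03% to 2.82% of all genes were called, against 4.37% with every library. It was 4 without LCHADD male 1 (2.95%), 5 without WT female 1 (2.94%) and 17 without LCHADD female 3 (9.61%).

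Libraries of a group differed in how far they moved, a comparison made after the values had been seen. LCHADD female 2 was the highest of the LCHADD females for 24 of the 37 genes that rose, or 64.9%, against 59.2% of all genes that rose. Its excess over the mean of the other LCHADD females was largest for Eif1a, at a ratio of 1.91, Eef1e1, at 1.88, and Eif4a1, at 1.81. For Eef1b2, Eef2, Eif3h and Eef2kmt it was below that mean, at ratios of 0.894 to 0.910. LCHADD male 2 was the lowest of the LCHADD males for 25 of the 37, or 67.6%, against 48.3% of all genes that rose. Without LCHADD female 2 the counts in the mean of both sexes were 35 higher and 3 lower, with Eif4g1 the added lower gene. There 20.2% of all genes were higher and 20.9% lower.

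Other genes of translation were taken from a list of 69, of which 66 were tested. Of these 29 rose, 4 fell and 33 did not pass in the mean of both sexes, against the same 20.3% and 20.6% of all genes. Termination and recycling genes rose in 8 of 9 cases. Hbs1l and Mcts1, which act in rescue and in recycling of ribosomes, changed by 0.53 ± 0.055 (SE, adjusted p = 2.85e-06) and 0.52 ± 0.076 (SE, adjusted p = 7.30e-05), Denr, the partner of Mcts1, by 0.31 (adjusted p = 0.000899), and Etf1, the release factor that reads stop codons, by 0.45 (adjusted p = 0.00137). The exception, Mcts2, had 0.035 (adjusted p = 0.873).

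Among binding partners of the poly(A) tail and of mRNA, 4 of 11 rose and 1 fell. Pabpc4 and Pabpc1, which encode poly(A)-binding proteins, rose by 0.67 ± 0.053 (SE, adjusted p = 2.08e-07) and 0.61 ± 0.13 (SE, adjusted p = 0.00191), Paip1, their partner that favours translation, by 0.24 (adjusted p = 0.00644), and Gigyf2, a partner of eIF4E2, by 0.24 (adjusted p = 0.00762). Paip2b, which encodes an inhibitor of the poly(A)-binding protein, fell by 0.19 on the log2 scale (adjusted p = 0.0347). Those with the most reads that did not pass were the helicase gene Ddx3x, with -0.10 (adjusted p = 0.151), and Paip2, with -0.034 (adjusted p = 0.657). Of the enzymes that modify eIF5A (hypusine) and eEF2 (diphthamide), 4 of 9 rose, all of them for diphthamide: Dph3 by 0.53 ± 0.067 (SE, adjusted p = 1.91e-05), Dph5 by 0.92 ± 0.18 (SE, adjusted p = 0.000934), Dph6 by 0.46 (adjusted p = 0.0134) and Dph1 by 0.48 (adjusted p = 0.0161). Of those that did not pass, Dhps, the enzyme of the first hypusine step, and Dph2 had the most reads, with -0.026 (adjusted p = 0.841) and 0.20 (adjusted p = 0.362).

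In the arm of mTORC1 and the eIF4E kinases 8 of 17 rose and 2 fell. Deptor, which encodes an inhibitor of mTOR, had 1372 ± 259 normalised reads in LCHADD and 400 ± 68.8 in WT (SD, n = 6 each), a log2 change of 1.77 ± 0.12 (SE, adjusted p = 2.84e-08). Mtor itself rose by 0.55 ± 0.05 (SE, adjusted p = 8.66e-07) and Mknk1, a kinase of eIF4E, by 0.83 ± 0.11 (SE, adjusted p = 4.20e-05). Castor2, named for its kinship to the arginine sensor of mTORC1, fell by 1.07 on the log2 scale (adjusted p = 2.33e-05), with 378 ± 83.5 normalised reads in LCHADD and 780 ± 103 in WT (SD, n = 6 each). Tsc1, of the complex that restrains mTORC1, was the other that fell, by 0.23 (adjusted p = 0.0178). Mknk2 and Tsc2, with the most reads of those that did not pass, had 0.013 (adjusted p = 0.886) and 0.071 (adjusted p = 0.278).

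In a short list around the eIF2 kinase GCN2, 2 of 4 rose, the ATP-binding Abcf1 by 0.27 (adjusted p = 0.00271) and Impact, which encodes an inhibitor of GCN2, by 0.23 (adjusted p = 0.0295), and Abcf2 and Abcf3 had 0.11 (adjusted p = 0.391) and 0.027 (adjusted p = 0.759). Factors of mitochondrial translation had a median of -0.074 over 10 genes, with 2 higher and 1 lower. Tufm, the mitochondrial counterpart of eEF1A, fell by 0.29 on the log2 scale (adjusted p = 0.000223), with 2905 ± 412 normalised reads in LCHADD and 3530 ± 188 in WT (SD, n = 6 each). Mtrf1, a release factor, rose by 0.28 (adjusted p = 0.0128) and Mrrf, for ribosome recycling, by 0.15 (adjusted p = 0.0406), while the elongation factor genes Gfm1 and Gfm2 had 0.033 (adjusted p = 0.592) and -0.14 (adjusted p = 0.0507). Of the selenocysteine genes 1 of 6, Sepsecs, rose, by 0.30 (adjusted p = 0.00732), and Secisbp2l and Sephs2 had 0.12 (adjusted p = 0.129) and 0.18 (adjusted p = 0.117).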

How the data were processed

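The deposited table gives 1 signal value per gene and library. Per the submitters' processing notes, reads were handled on build GRCm39 with bcl2fastq and DESeq2, and the sources used here do not name an aligner, counter or annotation or say if strand was used. In every library 100% of the deposited signal values divided evenly by 1 step, with a tolerance of 0.01, so they are read counts divided by 1 size factor, called normalised reads here, and reads were recovered by dividing by the step. Of 51912 gene IDs, 51633 matched a symbol in GENCODE vM21 (build GRCm38), so no coordinates of the files are given. The 12 libraries were grouped by genotype and sex as labelled. Genes with at least 10 in at least 3 libraries (13865) were fitted as log2 of the value plus 1, with 4 group means, in limma 3.58.1 (lmFit, eBayes with trend) in R 4.3.3, and Benjamini-Hochberg adjusted over all of them. Adjusted p-values are limma's unless another tool is named. The method was tested on simulated data with far fewer changed genes than here and no outlying library, so it was not tested for those features. Fold changes of low genes are understated by the added 1. Total reads per library limit precision for counting error only, and they ranged from 15.6 to 23.2 M.

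The members and lists were chosen with earlier results of these data known. Values in every library are given for the 10 genes with the largest absolute change that passed and for sets of close relatives. Eef2k, 1 of the 2 genes that fell, is given in every library outside this rule. In each related list, changes are given for at most 4 passing genes (smallest adjusted p) and at most 2 with many reads not passing. Paip2b and Tsc1 were named outside this rule, after their values were seen, to complete counts of genes that fell. Alternatives were edgeR 4.0.16 (quasi-likelihood) and DESeq2 1.42.0 (Wald) on recovered reads, TMM scaling, scaling by nuclear reads, added values of 5 and 0.5, no filter and a filter at 50, robust eBayes, 1 sex alone, a replicate block, each library left out, LCHADD female 2 and WT female 3 left out together, and a 1.2-fold threshold. The 9 promoter motifs were picked by hand and the tract search was added after the changes had been seen. Genes with a name of this family that have no row here were not analysed here.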

Additional observations from a re-analysis of the deposited data

How the results depend on the processing

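Of the 39 genes that passed in the mean of both sexes, 27 passed under every alternative run and 31 under all but the 1.2-fold threshold, and the other 12 lost the call under at least 1. The counts in that mean were 37 and 2 with edgeR, DESeq2, TMM scaling, nuclear scaling, both added values, the filter at 50 and robust eBayes. Under these settings 20% to 23.9% of all genes were higher and 17.7% to 23.6% lower. With libraries left out 1 at a time they ran from 32 to 39 higher and from 1 to 3 lower, in females from 26 to 35 higher and from 0 to 3 lower, and in males from 12 to 26 higher and from 0 to 1 lower. Of all genes, these fits called 17.9% to 21.7% higher and 18.1% to 21.8% lower in the mean. In females they called 13.4% to 18.2% higher and 13.5% to 18.4% lower, and in males 4.8% to 11.7% higher and 4.45% to 12.1% lower. The interaction ran from 0 to 4 genes (0% to 1.34% of all genes), the difference between the sexes from 3 to 17 and the related genes from 27 to 36. For the difference between the sexes, shares at the lowest and highest counts are given above. For the related genes, counted in either direction, the shares of the mean apply. At 1.2-fold 28 genes were higher (16.8% of all genes) and 1 lower (17.3%) in the mean and 4 differed between the sexes. With no filter 34 were higher in the mean, where 10.2% of all 25687 genes with any reads were. Nuclear scaling and females alone each left 0 lower in females, with 38 and 24 higher. There 14.1% and 12.6% of all genes were lower and 20.8% and 12.2% higher. With males alone 26 were higher (11.8% of all genes) and 2 lower (12.3%). Leaving out both LCHADD female 2 and WT female 3 gave counts of 27 higher and 1 lower in males and 3 lower in females. Of all genes 11.7% were then higher and 12.2% lower in males, and 14.1% lower in females. DESeq2 called 21 higher in males (8.06% of all genes) and 5 interactions (0.909%). Without a filter 5 genes differed between the sexes, as did 1.71% of all genes. Where no construction is named, the cause was not tested.

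Same-numbered libraries of different groups did not deviate together (correlations of -0.11 to 0.05, 0 of 18 over 0.1, and 11 of 36 best matches with the same number), so no sign of pairing by number was seen. With 3 libraries in a group, a weak pairing could go unseen. With a replicate block 36 genes were higher and 2 lower in the mean, 33 and 1 in females and 17 and 0 in males, 0 had an interaction and 4 differed between the sexes. Of all genes, 19.7% were then higher and 19.9% lower in the mean, 16.1% and 16.4% in females and 7.26% and 7.28% in males. An interaction held for 0.00721% and a difference between the sexes for 3.15%.

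Signs turned for 5 genes, none of which passed. Eif2b4 had -0.034 without LCHADD female 2, -0.023 without WT female 3, -0.011 without WT male 2 and -0.072 with LCHADD female 2 and WT female 3 both left out, and at most 0.058 without another single library. Eif4e3 had 0.016 without LCHADD female 2 and with both left out, and as low as -0.09 without another. Eef1akmt2 had -0.052 without LCHADD female 2, -0.031 without LCHADD male 3, -0.018 without WT male 1 and -0.034 with both left out, and up to 0.085 otherwise. Eif4ebp2 had 0.033 under nuclear scaling, 0.0 without LCHADD female 3, 0.005 without WT female 3 and 0.004 with both left out, and down to -0.029 otherwise. Eif4a3 had -0.002 without LCHADD female 2 and -0.007 without WT male 2, and up to 0.063 otherwise. This check first covered all 58 genes in 4 comparisons, where 141 values turned, 0 of them of a gene that passed, and it was then narrowed to the changes the report prints. Members with few reads, such as Eif3j2 and Eif5a2, have the widest errors.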
